A study of Mus musculus with 8 samples.

Results

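Immunity-related GTPases (IRG proteins) are interferon-inducible GTP-binding proteins of the mouse that attack membrane-bound compartments inside cells. The 7 genes described here are Iigp1 (also Irga6), Tgtp1 and Tgtp2 (both Irgb6), Gm12250 (Irgb10), Irgm1, Irgm2 and Igtp (Irgm3). They were chosen by gene name, with their response to oxPAPC in these libraries already known, so their difference between the groups is given as a description and not as a test. They are 7 of the 19330 genes in the table and 7 of the 16434 that passed the filter on low counts. Each had at least 20 counts in every library of both groups, so none of them passed only through the libraries in which it was high.

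The RNA came from regulatory T cells (Tregs) of B6 mice, made by polarizing naive CD4+ T cells from the spleen in culture for 3 days. In the oxPAPC group (4 libraries) the culture contained oxPAPC, a mixture of oxidized phospholipids that forms when a common membrane phospholipid is oxidized. In the control group (4 libraries) the same polarization was done without it. The labels give neither dose nor age, and do not say whether the 4 libraries of a group came from separate mice or cultures, so every p-value below measures only the spread between these libraries. Poly(A)-selected RNA was sequenced, and the libraries held 14017583 to 21619731 counts.

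In mouse macrophages and fibroblasts, IRG proteins are made in response to interferon-gamma and protect against Toxoplasma gondii and Chlamydia by disrupting the vacuole in which these parasites live. The family is divided by the P-loop of the GTP-binding site, the G1 motif. The effector proteins carry the usual lysine there and are called GKS proteins, and they are loaded onto the vacuole membrane. The regulatory proteins Irgm1, Irgm2 and Igtp carry a methionine and are called GMS proteins; they sit on the cell's own membranes and hold the effectors inactive there. Irgm1 is also known to keep activated mouse CD4+ T cells alive under interferon-gamma.

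The class of each gene was read from its coding frame in the reference transcripts, and this stretch is shown because it divides the family into effectors and regulators. Sequences run 5′ to 3′ on the coding strand, from GENCODE M21 transcripts on GRCm38.p6, and capitals mark the codon for the lysine or methionine.
Tgtp1: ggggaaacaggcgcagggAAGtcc
Tgtp2: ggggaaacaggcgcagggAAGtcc
Gm12250: ggggagacaggggcagggAAGtcc
Irgm1: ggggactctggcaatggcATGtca
Irgm2: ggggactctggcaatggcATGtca
Igtp: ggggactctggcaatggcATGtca
The 3 regulators were identical to each other over this stretch, as were Tgtp1 and Tgtp2. Iigp1 belongs with the lysine class. The open frames ran from 407 codons in Irgm2 to 423 codons in Igtp. Over the whole coding frame Tgtp1 and Tgtp2 differed at 4 of 1245 aligned bases, which is an identity of 99.7%. The next closest pair was Irgm2 and Igtp at 74.6%, and the lowest identity was the 61.7% between Iigp1 and Irgm2.

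Promoter sequence is shown because all of these genes were higher in the oxPAPC libraries, and because interferon acts on such genes through short DNA elements. The gamma-activated site (GAS, letters TTCNNNGAA) is an element of interferon-gamma target genes, and the interferon-stimulated response element (ISRE, core letters GAAANNGAA) is bound by IRF proteins. Both strands were searched in windows from 250 bases before to 50 bases after the RefSeq transcript start on GRCm38.p6. Capitals mark the matches in the stretches below, which are written in the direction of the gene.
Tgtp1: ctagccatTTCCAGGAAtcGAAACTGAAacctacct
Tgtp2: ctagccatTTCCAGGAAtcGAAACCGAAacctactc
Igtp: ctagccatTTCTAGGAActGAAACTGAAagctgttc
Irgm2: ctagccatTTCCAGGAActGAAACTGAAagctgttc
Irgm1: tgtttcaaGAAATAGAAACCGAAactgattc
Gm12250: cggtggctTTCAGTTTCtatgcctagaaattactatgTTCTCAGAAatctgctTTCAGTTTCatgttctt
These stretches lie at chr11:48992307-48992342 (Tgtp1, minus strand), chr11:49064266-49064301 (Tgtp2, minus strand), chr11:58199503-58199538 (Igtp, plus strand), chr11:58214894-58214929 (Irgm2, plus strand), chr11:48871428-48871458 (Irgm1, minus strand) and chr11:58183745-58183814 (Gm12250, plus strand). Tgtp1, Tgtp2, Igtp and Irgm2 shared the same layout, a GAS match followed downstream by an ISRE match, although the first pair encodes effectors and the second pair regulators. In Gm12250 a GAS match stood between ISRE matches read on the other strand. Irgm1 held 2 overlapping ISRE matches and no GAS match. No GAS match overlapped an ISRE match in any of these windows.

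All 6 of the genes with an entry in the RefSeq promoter table held an ISRE match, 5 held a GAS match and 5 held both. Over all 32851 windows of the same length, 8.56% held an ISRE match, 8.3% a GAS match and 1.07% both. The stretches of Tgtp1, Tgtp2, Igtp and Irgm2 are nearly the same, so their matches do not count as separate cases. Ifi47, a further IRG gene described below, held neither match. The matches lay close to the transcript start. The GAS match began at -88 in Tgtp1, -81 in Tgtp2, -75 in Irgm2, -61 in Gm12250 and -45 in Igtp, counted in bases from the start. A match is only a run of letters, and binding was not measured here. Iigp1 had no entry in that table.

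**Figure D1:**
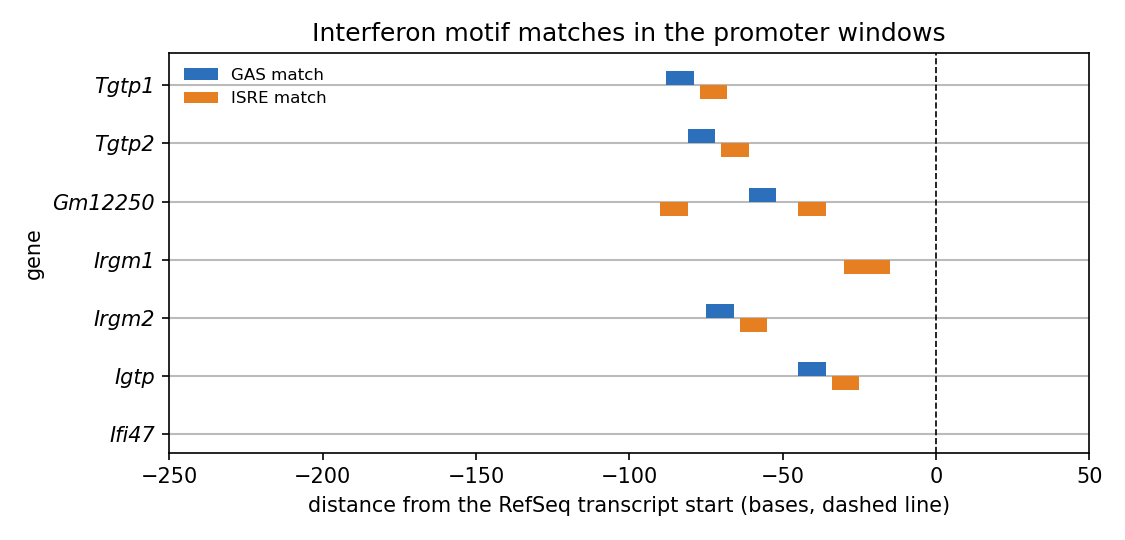
Positions of GAS matches (blue) and ISRE matches (orange) in the RefSeq promoter windows of 6 IRG members and of Ifi47, plotted as distance in bases from the transcript start (dashed line). The GAS match precedes the ISRE match in Tgtp1, Tgtp2, Irgm2 and Igtp, Irgm1 has only ISRE matches, and Ifi47 has neither.

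All 7 IRG genes had higher transcript levels in the oxPAPC libraries, by ratios of mean scaled counts (CPM, counts relative to library size) that ran from 1.58 for Irgm2 to 17.7 for Iigp1. In each of the 7, the lowest oxPAPC library was above the highest control library. Over all tested genes, 9.50% had every oxPAPC library above every control library. The edgeR fit called all 7 higher at an adjusted p under 0.05, a call that it made for 6.75% of all tested genes, and nothing is read from these counts because the genes were selected with that contrast known. The median log2 fold change was 1.84 over the 7 genes and -0.01 over all tested genes. Levels are CPM values scaled by trimmed mean of M values (TMM), and fold changes are the edgeR estimates of oxPAPC over control on the log2 scale, with standard errors derived from the test statistic.

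Among the effectors, Iigp1 differed most. It encodes the best studied effector, which forms oligomers on the parasite's vacuole. It was at 39.1, 40.5, 45.5 and 49.6 CPM in the oxPAPC libraries, against 2.53, 1.51, 3.70 and 2.16 CPM in the control libraries. The groups were far apart. The mean was 43.7 ± 4.83 CPM with oxPAPC and 2.48 ± 0.92 CPM without (SD, n = 4 each), a log2 fold change of 4.11 ± 0.22. That was the rank of 12 among the 16434 fold changes.

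Gm12250 encodes Irgb10, an effector known from Chlamydia vacuoles and from bacterial membranes in mouse macrophages. Its level was 34.6, 36.4, 43.0 and 32.1 CPM in the oxPAPC libraries, against 10.2, 7.70, 9.51 and 10.4 CPM in the control libraries. The groups did not overlap, and the spread within each was small. The mean was 36.5 ± 4.67 CPM with oxPAPC and 9.46 ± 1.24 CPM without (SD, n = 4 each), a log2 fold change of 1.94 ± 0.15. The table labels this row a processed pseudogene with a single exon of 1274 bases at chr11:58187739-58189012. That exon holds an unbroken frame of 417 codons, and RefSeq lists a protein-coding gene at chr11:58183843-58190198, so the counts cover part of the RefSeq gene.

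Tgtp1 and Tgtp2 encode Irgb6, an effector that is among the first to reach the vacuole. Tgtp1 was at 7.16, 10.2, 8.91 and 12.5 CPM in the oxPAPC libraries, against 3.19, 2.41, 5.16 and 1.93 CPM in the control libraries. Tgtp2 was at 10.8, 13.8, 11.03 and 18.4 CPM in the oxPAPC libraries, against 3.66, 2.19, 5.99 and 3.04 CPM in the control libraries. Both genes were highest in the fourth oxPAPC library and, among the controls, in the third, and neither overlapped between the groups. The log2 fold changes were 1.60 ± 0.29 for Tgtp1 and 1.84 ± 0.28 for Tgtp2.

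The separate values of this pair are uncertain. Of all 50-base stretches in the transcripts, 81.2% of those of Tgtp1 and 86.6% of those of Tgtp2 occur in another gene, the partner among them. The sources used here do not give how reads that fit several genes were counted. With both rows summed to a single row, the log2 fold change was 1.74 ± 0.26, between the separate values. For the other members the shared part was small, at most 11.8% (Igtp, shared with Irgm2) and 0 for Gm12250.

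Among the regulators, Irgm1 differed most. It was at 54.7, 57.7, 68.7 and 64.4 CPM in the oxPAPC libraries, against 13.8, 11.4, 17.9 and 14.9 CPM in the control libraries. The groups were well separated. The mean was 61.4 ± 6.34 CPM with oxPAPC and 14.5 ± 2.69 CPM without (SD, n = 4 each), a log2 fold change of 2.08 ± 0.16, which was larger than those of the effectors other than Iigp1.

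Igtp, the most abundant member, encodes a regulator found on the endoplasmic reticulum and lipid droplets. It was at 88.8, 75.8, 118 and 110 CPM in the oxPAPC libraries, against 33.9, 32.5, 43.5 and 49.7 CPM in the control libraries. The groups did not overlap, although libraries spread widely within both. The mean was 98.2 ± 19.4 CPM with oxPAPC and 39.9 ± 8.16 CPM without (SD, n = 4 each), and the log2 fold change was 1.297 ± 0.18.

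Irgm2, a regulator found at the Golgi, differed least. It was at 21.05, 26.05, 28.0 and 26.8 CPM in the oxPAPC libraries, against 14.8, 13.9, 20.0 and 15.9 CPM in the control libraries. The lowest oxPAPC library lay just above the highest control library. The mean was 25.5 ± 3.05 CPM with oxPAPC and 16.2 ± 2.702 CPM without (SD, n = 4 each), a log2 fold change of 0.65 ± 0.15. In GENCODE M21 the Irgm2 gene starts within Igtp (at 58199618, against 58199556 for Igtp), and the pair shares 162 exon bases, 8.01% of the exon bases of Igtp and 4.39% of those of Irgm2. RefSeq starts Irgm2 at 58214977, downstream of Igtp, and the promoter window above is taken from that start.

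**Figure D2:**
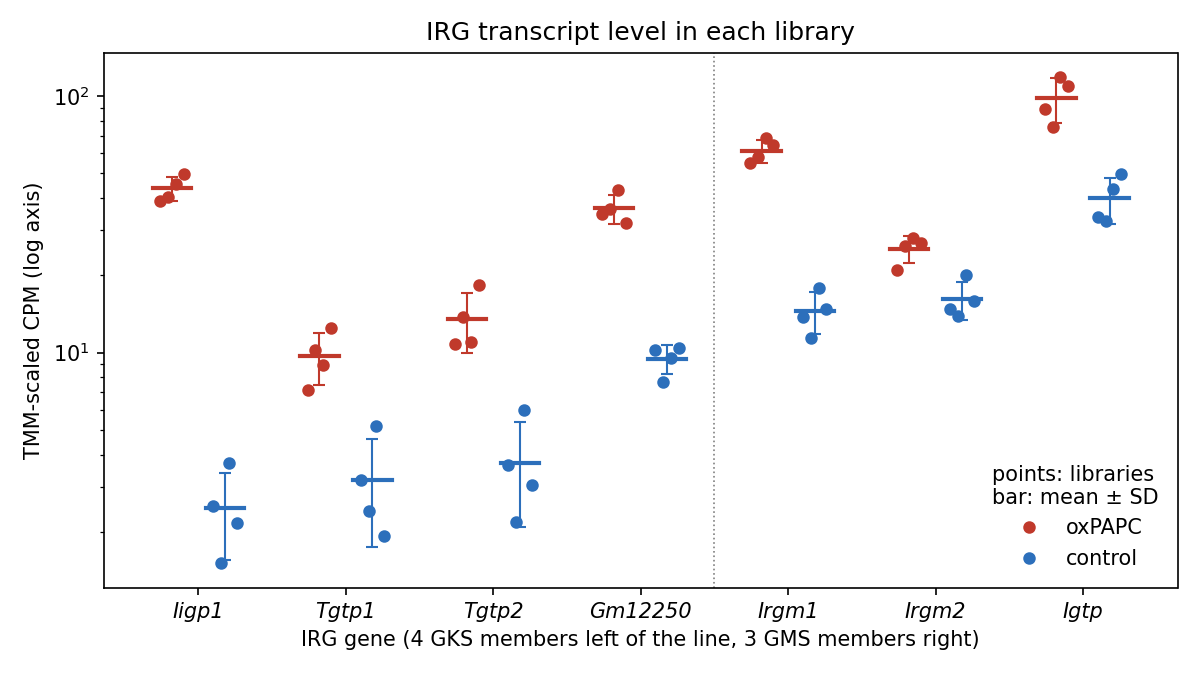
Transcript level of the 7 IRG genes in each library, in TMM-scaled CPM on a log axis, with oxPAPC (red) left of control (blue) for each gene. Points are libraries and bars are mean ± SD of 4; no gene overlaps between the groups, and the gap is widest for Iigp1 and narrowest for Irgm2.

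The authors' deposited table gave log2 fold changes from 0.69 (Irgm2) to 4.15 (Iigp1) for these genes, in the same order. By class, the 4 effectors ranged from 1.60 to 4.11 with a median of 1.89, and the 3 regulators from 0.65 to 2.08 with a median of 1.297. The classes therefore overlapped in their fold changes.

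Levels of different genes were compared per length, as CPM per kilobase of exon. In oxPAPC libraries the mean levels were 48.6 for Igtp, 28.7 for Gm12250, 10.6 for Irgm1, 7.51 for Iigp1, 6.90 for Irgm2, 4.60 for Tgtp2 and 3.03 for Tgtp1. The first 4 were each separated from the next by all 4 libraries, except that Iigp1 overlapped Irgm2, and Irgm2, Tgtp2 and Tgtp1 each overlapped the next. In control libraries the means were 19.7 for Igtp, 7.43 for Gm12250, 4.38 for Irgm2, 2.49 for Irgm1, 1.27 for Tgtp2, 0.991 for Tgtp1 and 0.425 for Iigp1. Igtp, Gm12250, Irgm2 and Irgm1 did not overlap with each other there, while Irgm1, Tgtp2, Tgtp1 and Iigp1 overlapped in turn.

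The order thus differed at 2 places. Iigp1 was the fourth in the oxPAPC libraries but the last in the control libraries, and Irgm1 stood above Irgm2 in the oxPAPC libraries and below it in the control libraries. Among the 16066 genes with a length, Iigp1 lay at percentile 69.7 with oxPAPC and 8.85 without. Igtp was high in both, at percentile 95.5 with oxPAPC and 88.8 without. The Gm12250 level refers to its single annotated exon, and the Tgtp1 and Tgtp2 levels carry the uncertainty of shared reads.

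As a whole, the family made up 256, 260, 324 and 314 CPM in the oxPAPC libraries, against 82.1, 71.6, 106 and 98.0 CPM in the control libraries. The log2 ratio of the group means was 1.69. The make-up of this sum differed as well. Effectors held 36.0 ± 2.15% of the family's counts with oxPAPC and 21.02 ± 2.89% without (SD, n = 4 each), with ranges of 33.5% to 38.8% and 17.9% to 23.9%. The effector share was thus higher in every oxPAPC library, by 15.0 percentage points on average.

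Most of that difference was Iigp1, which held 15.2 ± 0.775% of the family's counts with oxPAPC and 2.72 ± 0.677% without. Irgm1 held 21.3 ± 0.654% with oxPAPC and 16.2 ± 0.807% without. The shares of Irgm2 and Igtp were smaller with oxPAPC although their levels were higher. Irgm2 held 8.85 ± 0.790% with oxPAPC and 18.1 ± 1.41% without, and Igtp held 33.8 ± 3.27% with oxPAPC and 44.7 ± 4.52% without. The shares of Tgtp1, Tgtp2 and Gm12250 overlapped between the groups.

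**Figure D3:**
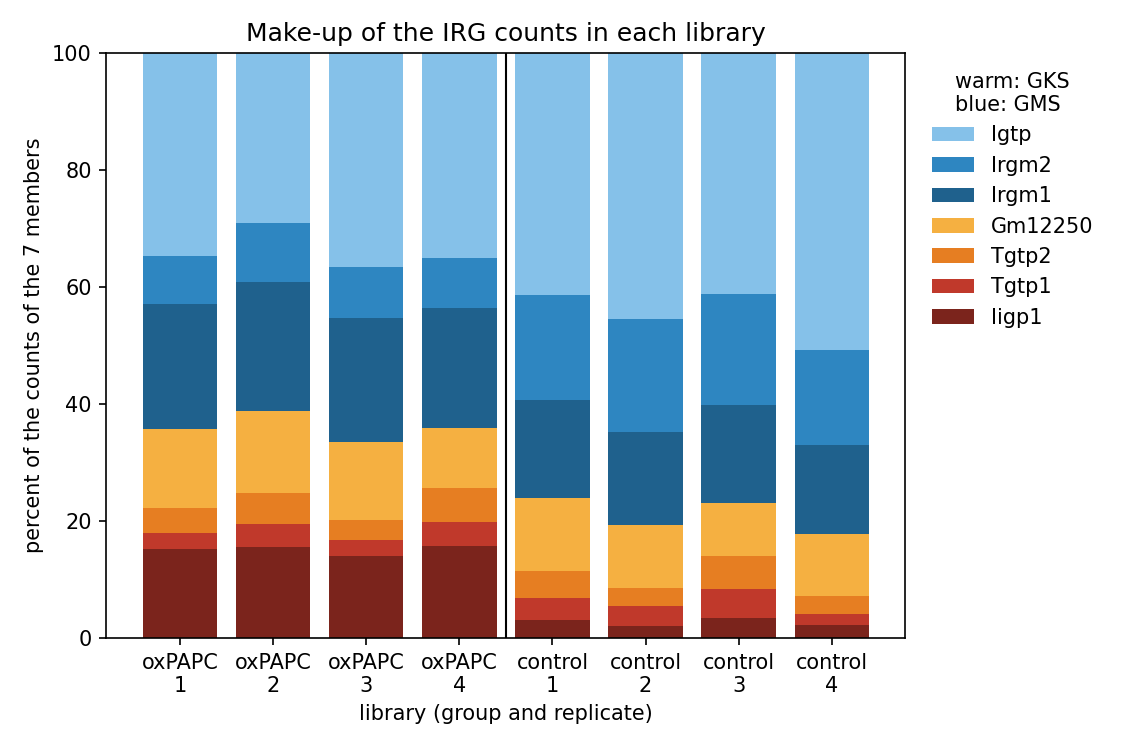
Percent of the counts of the 7 IRG genes that came from each gene, 1 bar per library, oxPAPC libraries on the left and control libraries on the right; warm colours are effectors (GKS) and blues are regulators (GMS). Effectors make up 33.5% to 38.8% in oxPAPC libraries and 17.9% to 23.9% in control libraries, with the widest gap for Iigp1.

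Within the groups, the members also varied together. After the group mean was taken from each log2 CPM value, 20 of the 21 gene pairs had a positive Pearson r over the 8 libraries, with a median of 0.60 and a range from -0.08 (Tgtp1 with Gm12250) to 0.91 (Iigp1 with Tgtp2). Irgm1 reached 0.91 with Irgm2, a pair with no 50-base stretch in common. Tgtp1 reached 0.88 with Tgtp2, a pair whose coding frames are 99.7% identical. These points share library, depth and scaling, and the values are descriptions. The same r was not computed over pairs of all tested genes. Whether the shared variation is particular to this family therefore cannot be told from these values. The mean of the 7 genes deviated most in the second control library, at -0.37, and in the third, at 0.42, on the log2 scale.

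That deviation moved closely with another feature of the libraries. The noncoding RNA Gm26917 took 19.4%, 16.6%, 9.51% and 9.35% of the counts in the oxPAPC libraries, against 19.7%, 29.1%, 8.59% and 16% in the control libraries, and its share had an r of -0.95 with the deviations of the IRG mean (8 libraries). The total count had an r of 0.52 with them, Ifng 0.60, Irf1 0.57 and Foxp3 0.32. In a fit that held the Gm26917 share as a covariate, an alternative chosen after the data were seen, all 7 genes were again called higher, with log2 fold changes of 3.97 for Iigp1, 1.95 for Irgm1, 1.15 for Igtp and 0.54 for Irgm2.

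All the members except Iigp1 lie on chromosome 11, in 2 groups. Irgm1 (48861968-48871683), Tgtp1 (48985327-48994172) and Tgtp2 (49057194-49064206) are on the minus strand, and Gm12250, Igtp (58199556-58207591) and Irgm2 (58199618-58222782) are on the plus strand. Iigp1 lies at 60376027-60392634 on chromosome 18, plus strand. A list of 10 further genes of the family was examined beside them, of which 8 were tested: edgeR called 4 higher and 0 lower, with a median log2 fold change of 0.69. Among those called, Gm4951, Gm4841 and F830016B08Rik passed the filter on low counts only through the oxPAPC libraries. For comparison, 6.75% of all tested genes were called higher and 6.52% lower, which is 1110 and 1072 genes; scaled by library size alone, 1154 were called higher and 458 lower.

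The 3 further genes near Iigp1 on chromosome 18 were near absent in control libraries and rose with oxPAPC. Gm4951 (Ifgga2) had 50, 66, 71 and 80 counts in the oxPAPC libraries, against 5, 0, 3 and 3 counts in the control libraries. Gm4841 (Ifgga3) had 20, 22, 37 and 27 counts in the oxPAPC libraries, against 1, 0, 2 and 0 counts in the control libraries. F830016B08Rik (Ifgga4) had 14, 15, 16 and 34 counts in the oxPAPC libraries, against 2, 1, 0 and 1 counts in the control libraries. No control library reached any oxPAPC library for these genes. The ratios of summed, scaled counts were 24.6 for Gm4951 (95% exact interval 13.5 to 49.9), 35.8 for Gm4841 (11.9 to 177) and 20.0 for F830016B08Rik (7.52 to 75.3), where the intervals cover counting error only. Single control libraries moved the edgeR log2 fold changes in both directions. That of Gm4841 was 4.94 over all libraries, 5.77 without control library 3 and 4.69 without control library 2. That of F830016B08Rik was 4.15 over all libraries, 4.73 without control library 1 and 3.68 without control library 3. For Gm4951 it was 4.58 over all libraries, 5.11 without control library 1 and 4.27 without control library 2. The edgeR adjusted p-values were 2.41e-05 for Gm4951, 8.51e-05 for Gm4841 and 5.8e-04 for F830016B08Rik. These genes passed the filter on low counts only through the oxPAPC libraries, in which they were high. Their p-values are therefore no independent support for the difference.

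A pair of pseudogene rows in the same stretch, added after their values were seen, were at 0 counts in every control library. Gm5970 had 22, 27, 17 and 26 counts in the oxPAPC libraries, which is at least 31.1-fold higher against a floor of 3 counts over the control group. It lies within the span of Gm4951 on the same strand and shares no exon bases with that gene. Whether the Gm5970 counts came from Gm4951 RNA was not tested. Gm8714 had 3, 5, 5 and 6 counts in the oxPAPC libraries, at least 6.42-fold higher. Iigp1 shares 1.69% of its 50-base stretches with Gm4951, Gm5970 and Gm4841, and none of its 100-base stretches.

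On chromosome 11 the further tested genes of the family that lie among Irgm1, Tgtp1 and Tgtp2 did not pass the test. The 9930111J21Rik1 gene was at 17.0 to 19.8 CPM in oxPAPC libraries, against 16.9 to 22.7 CPM in control libraries, and 9930111J21Rik2 (Irgb5) at 13.9 to 20.4 CPM, against 14.1 to 33.2 CPM. Both overlapped between the groups, with log2 fold changes of -0.12 and -0.55 (edgeR adjusted p = 0.631 and 0.129). Gm12185, which shares 223 exon bases with Tgtp1, had a log2 fold change of 0.02 (edgeR adjusted p = 0.972). Ifi47 (Irgd), added after its values were seen and located just beyond Tgtp2, was at 109 ± 10.1 CPM with oxPAPC and 38.6 ± 5.37 CPM without (SD, n = 4 each), a log2 fold change of 1.497 ± 0.15.

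On chromosome 7, Irgc1 (known from mouse testis) rose to 6.64 ± 1.39 CPM with oxPAPC, against 2.59 ± 0.49 CPM in control libraries (SD, n = 4 each); its log2 fold change was 1.37 ± 0.23 (edgeR adjusted p = 0.0018). Irgq on the same chromosome had a log2 fold change of -0.49 that did not pass (edgeR adjusted p = 0.16). Gm5431, which lies on chromosome 11 between Irgm1 and Tgtp1, had 28 counts over the oxPAPC libraries and 35 over the control libraries. It was too low to test.

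**Figure D4:**
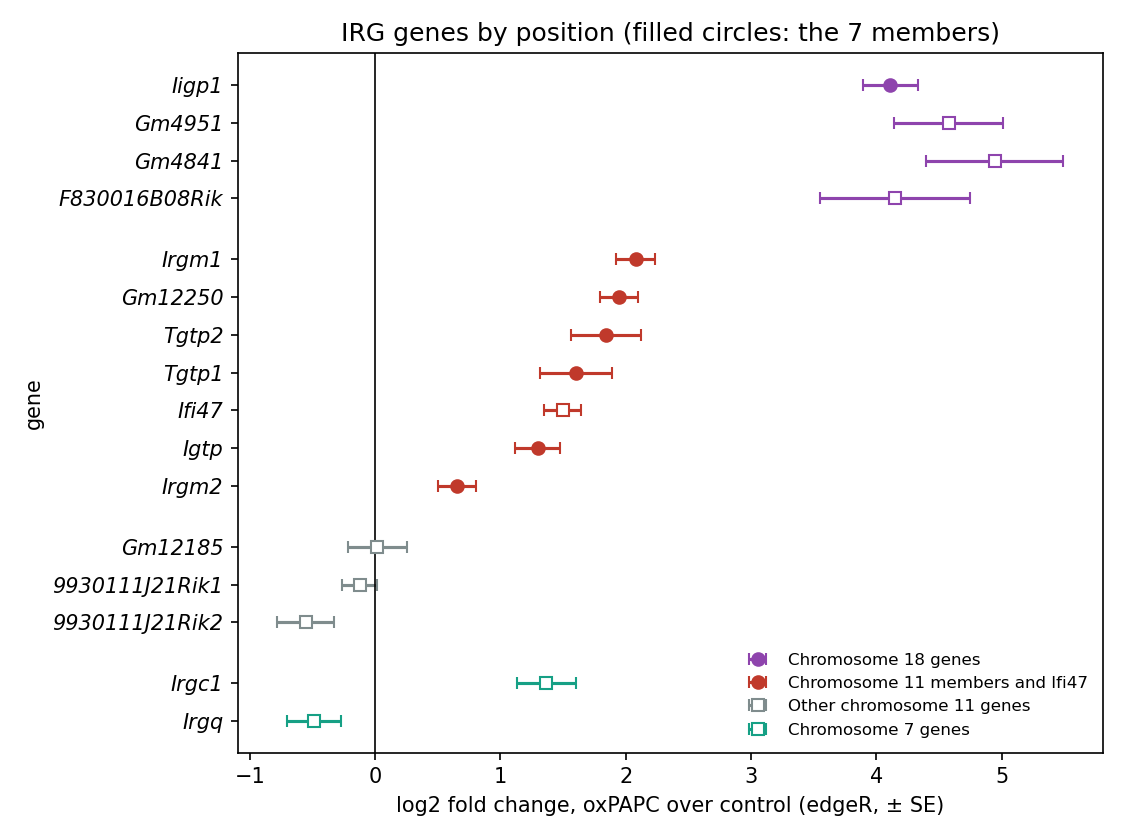
Log2 fold change of oxPAPC over control (edgeR estimate ± SE) for the 7 IRG members (filled circles) and other IRG genes (open squares), grouped by chromosome. The chromosome 18 genes lie above 4, the chromosome 11 members and Ifi47 between 0.65 and 2.08, and the other chromosome 11 genes near or below 0.

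Interferon signalling, through which IRG genes are induced, was examined with 19 tested genes: edgeR called 8 higher and 3 lower, with a median log2 fold change of 0.38. Over all tested genes, 6.75% were called higher and 6.52% lower. The ligand Ifng was at 60.7, 55.1, 89.5 and 92.3 CPM in the oxPAPC libraries, against 3.99, 1.13, 2.83 and 4.05 CPM in the control libraries. No library overlapped, and the log2 fold change was 4.60 (edgeR adjusted p = 1.85e-06). Its receptor genes fell: Ifngr1 was at 82.9 CPM with oxPAPC and 114 CPM without, and Ifngr2 at 47.8 CPM with oxPAPC and 76.3 CPM without (edgeR adjusted p = 0.0287 and 0.0079). Among the receptor genes for type I interferon, Ifnar2 fell, at 42.5 CPM with oxPAPC and 65.2 CPM without (edgeR adjusted p = 0.0291), while Ifnar1 had a log2 fold change of -0.27 that did not pass (edgeR adjusted p = 0.227). Scaled by library size alone, none of these receptor genes passed the test (edgeR adjusted p = 0.0739 for Ifngr2, 0.11 for Ifnar2 and 0.305 for Ifngr1). Ifngr1 also did not pass without oxPAPC library 1, 2 or 4 or control library 2 or 4 (edgeR adjusted p = 0.0744 to 0.0896), nor Ifnar2 without oxPAPC library 2 or 4 or control library 1, 2 or 4 (edgeR adjusted p = 0.0586 to 0.103).

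Among the transcription factor genes of the pathway, Irf1, Irf9 and Stat2 rose, while Irf8 had a log2 fold change of 0.52 that did not pass (edgeR adjusted p = 0.087). Irf1, which binds ISRE-like elements, was at 110 CPM with oxPAPC and 56.5 CPM without, a log2 fold change of 0.96 (edgeR adjusted p = 0.0005). Stat2 and Irf9, whose proteins act in the ISRE-binding complex of type I interferon, rose by 0.50 and 0.64 on the log2 scale (edgeR adjusted p = 0.0347 and 0.0063). The estimate for Irf1 was larger than that of Irgm2 and smaller than those of the other 6 members, differences that were not tested.

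The inhibitor genes Usp18 and Socs1 and the coactivator gene Nlrc5 rose. Usp18, which damps type I interferon signalling, was at 17.4 CPM with oxPAPC and 5.42 CPM without, a log2 fold change of 1.68 (edgeR adjusted p = 2.87e-05). Socs1, which blocks Janus kinases, had a log2 fold change of 0.66 (edgeR adjusted p = 0.0346), and Nlrc5, the coactivator of MHC class I genes, 0.91 (edgeR adjusted p = 0.0019). The inhibitor genes Socs3, Ptpn6 and Ptpn2 had log2 fold changes of 0.38, 0.15 and -0.10 that did not pass (edgeR adjusted p = 0.117, 0.685 and 0.74), and the kinase genes Jak1, Jak2 and Tyk2 did not pass either.

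Guanylate-binding proteins (GBPs) are the other interferon-inducible GTPases that gather at vacuoles alongside IRG effectors. Of 9 tested genes, 7 were called higher and 0 lower, with a median log2 fold change of 1.28, against 6.75% called higher over all tested genes. Gbp10 was at 1.87, 2.12, 2.43 and 2.79 CPM in the oxPAPC libraries, against 0.200, 0.226, 0.137 and 0 CPM in the control libraries, and Gbp6 had a log2 fold change of 2.41 (edgeR adjusted p = 1.4e-04 for each). Gbp10 passed the filter on low counts only through the oxPAPC libraries, so its p-value is no independent support. Gbp2 rose by 1.89 and Gbp7 by 1.75 on the log2 scale (edgeR adjusted p = 2.8e-04 and 6.3e-04). Gbp5, which is linked to inflammasome assembly, had a log2 fold change of 0.61 and Gbp8 of 0.34, and neither passed (edgeR adjusted p = 0.0652 and 0.396).

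The ubiquitin-like conjugation system of autophagy is needed in mouse cells to bring IRG and GBP proteins to vacuoles. It was examined together with other autophagy genes, among them Ulk1, Becn1 and Sqstm1, as a list of 15 tested genes. Of these, 0 were called higher and 2 lower, with a median log2 fold change of -0.09, against 6.75% called higher and 6.52% called lower over all tested genes. Counts this small are near those shares. Atg12, the protein that is joined to Atg5, fell to 22.8 ± 3.83 CPM with oxPAPC, against 43.0 ± 5.16 CPM in control libraries (SD, n = 4 each), a log2 fold change of -0.92 (edgeR adjusted p = 0.0015). Map1lc3a, an LC3 gene, fell to 7.99 CPM with oxPAPC, against 12.5 CPM in control libraries, a log2 fold change of -0.64 (edgeR adjusted p = 0.0257). Map1lc3a did not pass when scaled by library size alone (edgeR adjusted p = 0.136), or without oxPAPC library 2 or 4 or control library 1, 2 or 4 (edgeR adjusted p = 0.0606 to 0.0853). Atg3, Atg5, Atg7 and Atg16l1, also of the core conjugation machinery, had log2 fold changes between -0.09 and 0.23 and did not pass. Atg10, the enzyme that joins Atg12 to Atg5, had a log2 fold change of -0.51 that did not pass (edgeR adjusted p = 0.256).

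**Figure D5:**
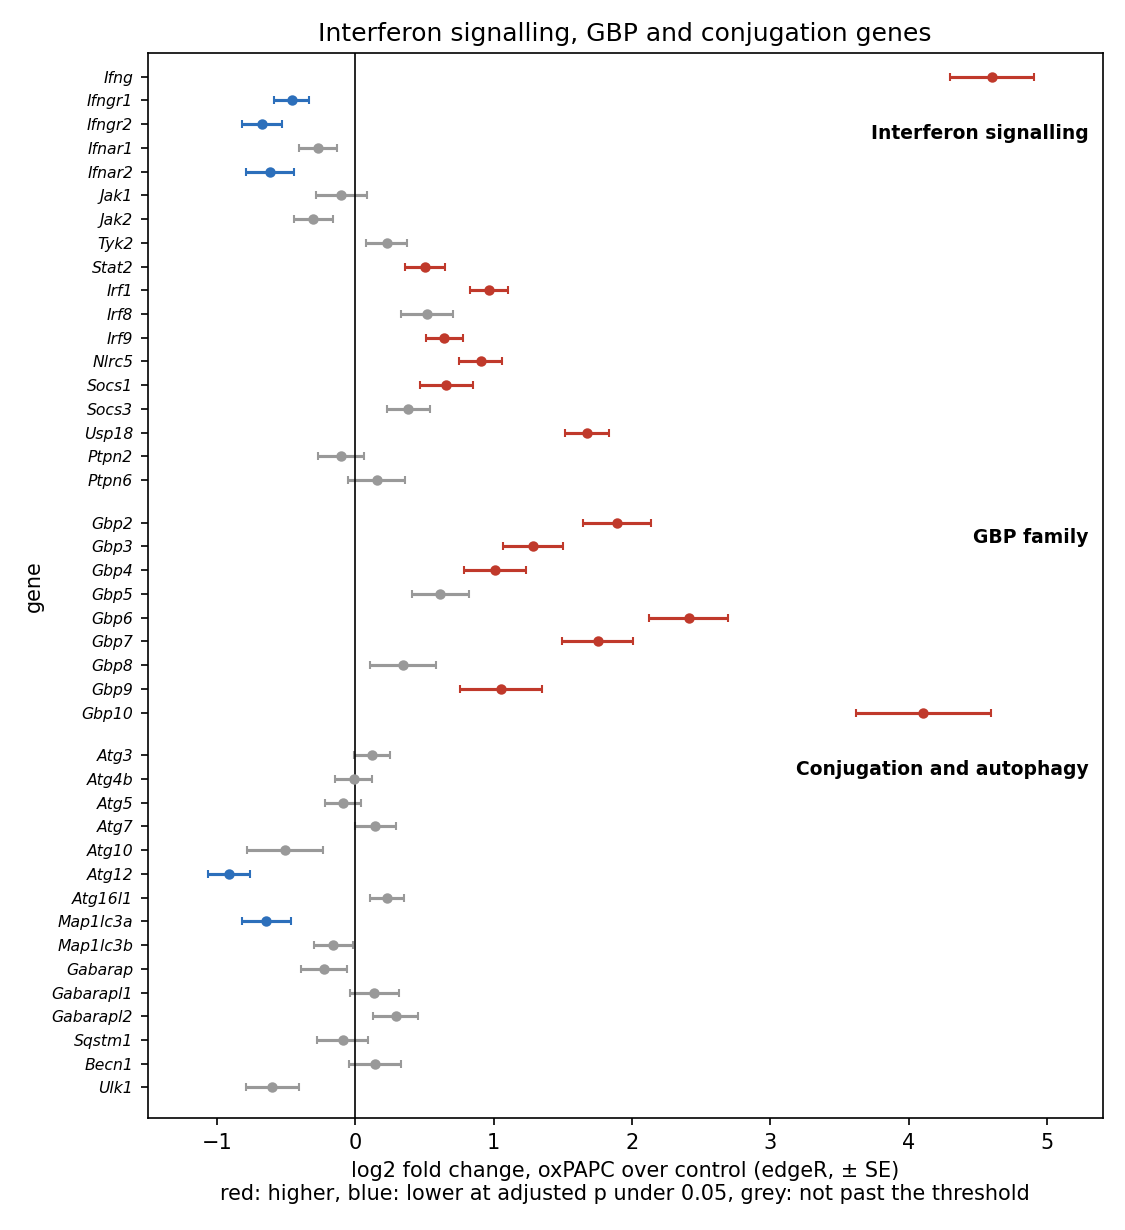
Log2 fold change of oxPAPC over control (edgeR estimate ± SE) for interferon signalling genes, GBP genes and conjugation and autophagy genes; red is higher and blue lower at an adjusted p under 0.05, and grey did not pass. Ifng (4.60) and Gbp10 (4.11) lie farthest to the right, and Atg12 (-0.92) farthest to the left.

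The genes whose pattern was most like the mean of the 7 members over the 8 libraries were sought among 10271 genes with a mean of at least 5 CPM. They were Mat2a (r = 0.993), Trim30d (0.992), Trim30a (0.992), Ly6a (0.991), Erc1 (0.991) and Slc20a1 (0.991). Mat2a encodes the enzyme that makes S-adenosylmethionine. It was at 79.9 ± 7.39 CPM with oxPAPC and 29.9 ± 4.02 CPM without (SD, n = 4 each). Within the groups, the deviations of these 6 genes had an r of 0.81 to 0.86 with those of the members. Much of the likeness over 8 libraries is the group difference itself, on which the members were selected. The 6 genes were also picked by r over these same libraries, a choice that favours a high r within the groups.

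Markers of the labelled cells and of other cells were read in the same libraries. All 12 Treg and T cell markers were expressed and none was called, with Foxp3 at 145 ± 52.1 CPM with oxPAPC and 154 ± 34.1 CPM without (SD, n = 4 each). The other lists were low but partly higher with oxPAPC. Over all tested genes, 6.75% were called higher and 6.52% lower. The summed macrophage markers were at 9.62 to 11.9 CPM with oxPAPC and 4.45 to 5.43 CPM without, 1 of 5 tested being higher (Mpeg1, 4.02 CPM with oxPAPC and 0.203 CPM without). Mpeg1 passed the filter on low counts only through the oxPAPC libraries. Csf1r, which defines macrophages, was at 1.51 CPM with oxPAPC and 1.011 CPM without. The macrophage markers Itgam, Cd14, Fcgr1 and C1qa had no row under these names in the counts. The same held for Clec9a, Siglech, Cd209a and Clec10a (dendritic cells) and for Ncr1, Klrb1c and Gzma (natural killer cells). The dendritic cell sum was 12.5 to 15.3 CPM with oxPAPC and 6.19 to 10.8 CPM without (1 of 3 tested higher). Most of it was Zbtb46, at 11.5 CPM with oxPAPC and 8.69 CPM without, which was not called. The B lineage sum was 19.9 to 24.5 CPM with oxPAPC and 12.2 to 17.5 CPM without (4 of 7 higher). Cd79a (4.23 CPM with oxPAPC and 4.03 CPM without) and Cd22 were not called. Cd79b ran lower, at 2.84 to 4.10 CPM with oxPAPC and 4.72 to 6.85 CPM without, and was not called. The CD8 sum was 10.9 to 18.7 CPM with oxPAPC and 6.72 to 8.90 CPM without (1 of 2 higher). Cd8b1 was at 6.33 CPM with oxPAPC and 5.96 CPM without and was not called. Of the 2 natural killer markers tested none was called, at 1.32 to 2.58 CPM with oxPAPC and 1.15 to 2.19 CPM without. Their part in the IRG difference was not tested, and in bulk RNA more cells of a type and more RNA per cell cannot be told apart.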

How the data were processed

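Poly(A)-selected RNA of Tregs was sequenced in 4 oxPAPC and 4 control libraries. The deposited table held whole-number counts per gene; reads were aligned with STAR 2.7.8a to GRCm38.p6, counted with featureCounts 2.0.2 and compared with DESeq2 1.30.1, per the submitters' processing notes. Strand and multi-mapping settings are not given in the sources used here. Per the file headers, the authors also deposited base means (a scaled count signal), log2 fold changes, a Wald score, p-values and fold ratios; of these, only their log2 fold changes are printed. No column was left without a sample.

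The counts were tested with edgeR 4.0.16 in R 4.3.3, with TMM scaling and filterByExpr. The functions glmQLFit and glmQLFTest were run on group, with Benjamini-Hochberg over all 16434 tested genes and a threshold of 0.05. A prior count of 2 was used only for the log2 CPM values behind the correlations and deviations. The script was tested on simulated data. Adjusted p-values in the report come from this fit. DESeq2 1.42.0 and limma 3.58.1 (voom) were alternatives, with other scalings, filters, a replicate block, and each library left out in turn. Of 19330 gene IDs, 97.8% had the coordinates of GENCODE M21, which gave exon lengths and coding frames. Coordinates are 1-based on GRCm38.

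The members and the gene lists were chosen with earlier results of these data known. Text names all members; of each other list at most the 6 called genes with the smallest adjusted p, plus Ifng, Irf1 and the receptors; and the 6 genes of most similar pattern. One gene of the interferon signalling list is counted but not reported here. Others were named after their values were seen: Stat2, Socs1, the kinases, the genes not called, Ifi47, Gm5970 and Gm8714.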

Additional observations from a re-analysis of the deposited data

Results flagged for a closer look

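Of 76 groups of 4 libraries searched, 2 held a library far from the others by Dixon's test at the 95% level, where chance gives about 4; neither was of an IRG member. Ifnar1 was at 91.44 CPM in control library 1, against 105.5 to 106.6 CPM in the other controls. Slc20a1 was at 61.72 CPM in oxPAPC library 4, against 54.26 to 55.47 CPM in the other oxPAPC libraries.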

How the results depend on the processing

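All 117 values of the 7 members under the alternatives kept their direction and their call. Their log2 fold changes ran over 3.96 to 4.38 for Iigp1, 1.95 to 2.20 for Irgm1, 1.86 to 2.07 for Gm12250, 1.66 to 2.18 for Tgtp2, 1.41 to 1.96 for Tgtp1, 1.15 to 1.42 for Igtp and 0.54 to 0.78 for Irgm2. For the other named genes, 461 values kept their call, 24 no longer passed and 0 reversed. Without TMM factors, on library size alone, the median over all genes was 0.12 (log2); interferon signalling then had 7 calls (7 higher, 0 lower) and conjugation 1. A filter at a mean of 5 CPM left 3 other IRG genes, of which 0 were called, and 3 GBP genes, of which 2 were called, since fewer genes were tested. With the replicate block 1453 genes were called (745 higher, 708 lower), against 2182 without it, with 7 members, 4 other IRG genes, 7 interferon signalling genes (6 higher, 1 lower), 7 GBP genes and 1 conjugation gene. Libraries of the same number had correlations of 0.32, -0.05, -0.37 and -0.04, and for 2 of 8 the best match had the same number. With 4 libraries per group, such correlations cannot show whether the cultures were paired. The labels number the replicates but state no pairing, so the replicate block is given only as an alternative. With each library left out in turn, calls over all genes ran from 1390 (without control replicate 2) to 2134, for conjugation from 1 to 3, interferon signalling 8 to 9, GBP 6 to 8, other IRG genes 4 to 5, and members 7 to 7. Low depth limits the chromosome 18 neighbours, where control libraries held 0 to 5 counts.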
